A study of Mus musculus with 20 samples.

Results

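TATA-binding protein, its paralogs and a set of TBP-associated factors (TAFs) known from germ cells were followed through mouse oocytes and spermatogonia. The cells came from knockouts of the chromatin remodeller Chd4 and from their controls. The 8 genes, Tbp, Tbpl1, Tbpl2, Taf4b, Taf7, Taf7l, Taf3 and Taf9b, were taken by symbol from a table of 55291 genes for spermatogonia and a table of 53722 genes for oocytes. All 8 were listed in both. The libraries held bulk RNA, and transcripts, not proteins, were measured.

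TBP recognises the TATA element of core promoters and is the central subunit of TFIID, in which the TAFs surround it. RNA polymerase II is then recruited together with TFIIA, TFIIB and the remaining general factors. TBP also serves RNA polymerases I and III in other complexes. Vertebrates carry the paralogs TBPL1, known for its role in spermatids, and TBPL2, which replaces TBP in growing mouse oocytes and works there with TFIIA rather than with TFIID. Several TAFs have paralogs of their own. TAF4B is needed for the ovarian reserve and for spermatogonial stem cells, and TAF7L, encoded on the X chromosome, is used in spermatogenesis.

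The series had 20 libraries in 10 groups of 2. DcKO mice were Chd4 f/- with 1 copy of Ddx4-Cre, a Cre transgene driven by a germ cell gene. Their Dctrl controls were Chd4 f/+ with the same transgene, so they carried Cre and could retain a single working allele. Non-growing oocytes (NGO) of both came from ovaries at postnatal day 1 (P1) and P5, and undifferentiated spermatogonia of both came from testes at P3. GcKO mice were Chd4 f/f with 1 copy of Gdf9-iCre, a Cre transgene driven by an oocyte gene, and their Gctrl controls were Chd4 f/f without Cre. NGO and growing oocytes (GO) of both were taken at P10. All mice shared a mixed background of the strains C57BL/6, 129S1/Sv and FVB/NJ. The labels give no sort or gate, do not say whether mice were pooled, and do not call the replicates separate animals. The p-values therefore measure the spread between these libraries, which may be technical.

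The libraries held 15.3 to 30.1 M reads assigned to genes (M, 1000000 reads), as recovered from the deposited values in transcripts per 1000000 (TPM). TPM is scaled for gene length and sums to the same total in every library. Chd4 was at 4.32 and 1.89965 TPM in P1 DcKO oocytes against 24.7 and 31.2 TPM in Dctrl oocytes. At P5 it was at 8.28 and 4.94 TPM in DcKO oocytes against 14.5 and 17.9 TPM in Dctrl oocytes. In spermatogonia it was at 40.2 and 51.7 TPM in DcKO cells against 248.6 and 286.4 TPM in Dctrl cells. At P10 it was at or under 3 TPM in every library, with 1.34 and 0.247 TPM in GcKO NGO against 1.63 and 1.85 TPM in Gctrl NGO, and 0.631 and 1.54 TPM in GcKO GO against 1.56 and 2.96 TPM in Gctrl GO. By the limma test described below, Chd4 fell in P1 DcKO by 2.87 on the log2 scale (SE 0.50, limma adjusted p = 0.0136). That call was lost under 4 of 12 alternative settings, and Chd4 was not called in the other knockout comparisons. In P10 GO the higher GcKO library (1.54 TPM) was close to the lower Gctrl library (1.56 TPM). The deleted exons were not given, so reads from outside them may remain in these values. All 8 oocyte markers reached 1 TPM in each of the 16 oocyte libraries, and all 8 spermatogonial markers did so in each of the 4 spermatogonia libraries. The summed TPM of 9 supporting cell markers stayed at or under 52.0 in oocytes, 8 stromal markers at or under 29.5, and 5 blood markers at or under 7.96. The 3 endothelial markers stayed at or under 24.3 in all but 1 oocyte library, described with its result.

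Tbpl2 passed the test in more comparisons than any other of the 8 genes, and its promoter is shown beside those of Taf7l, whose level spanned the widest range after it, and of Tbp, which did not pass the test in any comparison. The windows are the 250 bases before the RefSeq start in GRCm38.p6, 5′ to 3′ on the strand of the gene: chr2:24096596-24096845 on the minus strand for Tbpl2, chrX:134476491-134476740 on the minus strand for Taf7l and chr17:15499638-15499887 on the plus strand for Tbp. Capitals mark the letters CACCTG, an E-box form bound by the oocyte factor FIGLA. In the Taf7l window they mark TATAAA, the letters of a TATA box.
Tbpl2: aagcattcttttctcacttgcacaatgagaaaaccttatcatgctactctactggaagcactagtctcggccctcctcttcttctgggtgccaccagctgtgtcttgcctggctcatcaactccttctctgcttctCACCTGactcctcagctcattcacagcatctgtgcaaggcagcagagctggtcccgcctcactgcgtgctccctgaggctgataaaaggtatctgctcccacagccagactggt
Taf7l: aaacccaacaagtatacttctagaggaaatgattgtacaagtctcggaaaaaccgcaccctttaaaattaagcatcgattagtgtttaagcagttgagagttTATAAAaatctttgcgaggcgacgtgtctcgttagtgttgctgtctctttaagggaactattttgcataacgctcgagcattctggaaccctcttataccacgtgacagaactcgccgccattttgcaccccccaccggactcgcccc
Tbp: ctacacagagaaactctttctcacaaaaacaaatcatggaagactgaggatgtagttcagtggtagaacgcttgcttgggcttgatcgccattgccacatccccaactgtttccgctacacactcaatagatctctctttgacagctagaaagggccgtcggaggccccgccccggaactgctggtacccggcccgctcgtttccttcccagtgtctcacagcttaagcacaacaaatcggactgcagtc
The Tbpl2 window held 1 CACCTG, 114 to 109 bases before the start, and the Taf7l window held 1 TATAAA, 148 to 143 bases before it. The Tbp window held neither, and none of the 3 held TAATTG, an element bound by the oocyte factor NOBOX. Of 32536 promoter windows searched, 17.3% held CACCTG on either strand, 7.18% held TAATTG on either strand and 7.55% held TATAAA on the gene's strand. Only these exact letters were searched, at any position in the window, so other forms of the elements were not counted. Whether a match acts in its promoter was not tested. The Tbpl2 window had 3 CpG sites, the Taf7l window 14 and the Tbp window 11, against a median of 6 over all windows. Windows were read for 6 of the 8 genes, and Taf4b and Taf7 were left out of this reading. Among those not printed, the Taf3 window held CACCTG 171 to 166 and again 144 to 139 bases before the start. The match was thus not particular to Tbpl2. The windows of Tbpl1 and Taf9b held none of the letters searched.

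Tbpl2 was the member with the widest range. It was listed at 0 reads in all 4 spermatogonia libraries, where 3 reads would have been worth 0.401 and 0.368 TPM in DcKO and 0.364 and 0.252 TPM in Dctrl. In oocytes it was lowest at P1 in both genotypes. In P1 NGO it was at 6.89 and 3.40 TPM in DcKO against 65.0 and 86.7 TPM in Dctrl. In P5 NGO it was at 172.6 and 114.1 TPM in DcKO against 271.3 and 278.4 TPM in Dctrl. At both ages each knockout library lay below each control library. In P10 NGO it was at 294.7 and 373.6 TPM in GcKO against 380.1 and 584.3 TPM in Gctrl, and the groups again did not overlap. In P10 GO the order was the opposite, with 1291.7 and 1263.4 TPM in GcKO against 394.1 and 590.0 TPM in Gctrl. Ordered by mean, the groups ran from GcKO GO through Gctrl GO, Gctrl NGO and GcKO NGO at P10 to P5 Dctrl, P5 DcKO, P1 Dctrl and P1 DcKO. The only neighbours in that order whose libraries overlapped were Gctrl GO and Gctrl NGO.

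**Figure D1:**
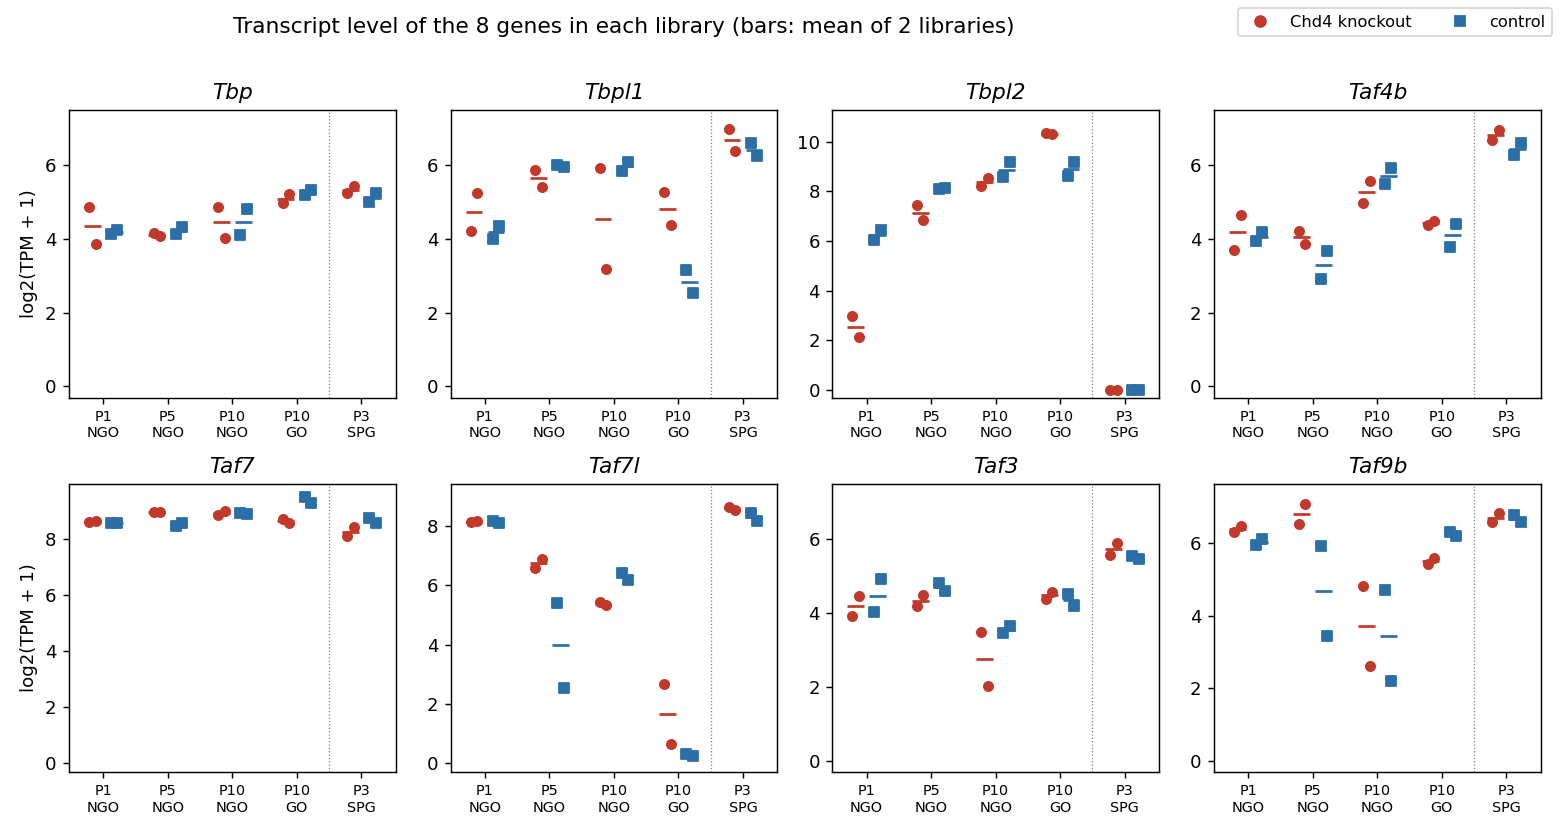
Level of each gene in each library as log2(TPM + 1), with Chd4 knockout (red circles) left of its control (blue squares) at each stage and a bar at the mean of 2 libraries. Tbpl2 is at 0 in spermatogonia (SPG, right of the dotted line, from a separately normalised table), lowest among oocytes in P1 DcKO and highest in P10 GcKO GO.

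Tests were made with limma on log2(TPM + 1), which understates the change of genes with low TPM, with p-values adjusted over all genes tested. In P1 NGO, Tbpl2 fell by 3.69 on the log2 scale in DcKO (SE 0.33, limma adjusted p = 0.000266). It was the only 1 of the 8 genes that passed, against 1.7% of the 20470 genes tested. The fall passed under all 12 alternative settings, including each library left out, with log2 changes between -4.11 and -3.27. The other 7 genes had adjusted p-values from 0.978 to 1. Libraries did not overlap for 3 of the 8 genes, against 40.9% of all genes: Tbpl2 was lower in DcKO, and Taf7 and Taf9b were higher. The 3 endothelial markers summed to 24.3 and 15.7 TPM in P1 DcKO against 8.21 and 7.67 TPM in Dctrl, most of it Pecam1, and their part in the Tbpl2 result was not tested. Fewer cells of a type and less RNA per cell cannot be told apart in bulk samples.

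In P5 NGO none of the 8 genes passed the test, against 1.36% of all genes. An unadjusted limma p under 0.05 was found for 4 of the 8, and for 2421 of the 20470 genes tested. Tbpl2 had a log2 change of -0.96 (SE 0.33, limma adjusted p = 0.223). The knockout effect on Tbpl2 was smaller at P5 than at P1, and the difference between both effects was 2.73 (SE 0.46, limma adjusted p = 0.0307). A difference of this kind passed for 0.313% of all genes, and for Tbpl2 alone of the 8. The call was lost under 10 of 16 alternatives, with adjusted p up to 0.127; among libraries it was lost without either P1 Dctrl library, either P5 Dctrl library, P1 DcKO replicate 2 or P5 DcKO replicate 1, while the difference stayed between 2.31 and 3.15.

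In P10 GO, Tbpl2 rose in GcKO by 1.40 on the log2 scale (SE 0.33, limma adjusted p = 0.0127). It was called together with Taf7, so that 2 of 8 genes passed against 13.8% of all genes. In P10 NGO, Tbpl2 had a log2 change of -0.51 (SE 0.33, limma adjusted p = 0.535). None of the 8 genes passed there, against 1.92% of all genes. Nor did any have an unadjusted limma p under 0.05, against 3186 of the 20470 genes tested. The difference of the Tbpl2 effect between GO and NGO was 1.91 (SE 0.46, limma adjusted p = 0.0279), where 7.46% of all genes passed. That call was lost under 9 of 16 alternatives, with a limma adjusted p up to 0.105, including without Gctrl NGO replicate 2, GcKO NGO replicate 1, Gctrl GO replicate 1 or either GcKO GO library; the difference stayed between 1.60 and 2.22. The GO call was lost without Gctrl replicate 1 (limma adjusted p = 0.116), GcKO replicate 1 (0.0558) or GcKO replicate 2 (0.05002). With median-of-ratios scaling the rise was 1.17 (limma adjusted p = 0.0379) but the difference between GO and NGO no longer passed, at 1.61 (limma adjusted p = 0.0639).

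Other transcripts moved with the Tbpl2 rise in GcKO GO. Dppa3, a maternal factor and an oocyte marker, took up 94336 and 105478 TPM in GcKO GO against 45242 and 46799 TPM in Gctrl GO. The 3 endothelial markers summed to 98.6 TPM in GcKO GO replicate 1 and 2.32 TPM in replicate 2, against 3.23 and 1.03 TPM in Gctrl GO. Pecam1 supplied 98.6 TPM of that sum, and the endothelial genes Cdh5 and Kdr were at 0 TPM in the same library. The 8 stromal markers summed to 26.2 and 17.1 TPM in GcKO GO against 8.13 and 4.49 TPM in Gctrl GO, 5 blood markers to 1.94 and 0 TPM in GcKO GO against 0 and 0.213 TPM in Gctrl GO, and 9 supporting cell markers to 4.28 and 9.87 TPM in GcKO GO against 10.7 and 1.98 TPM in Gctrl GO. The part of these in the Tbpl2 result was not tested.

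**Figure D2:**
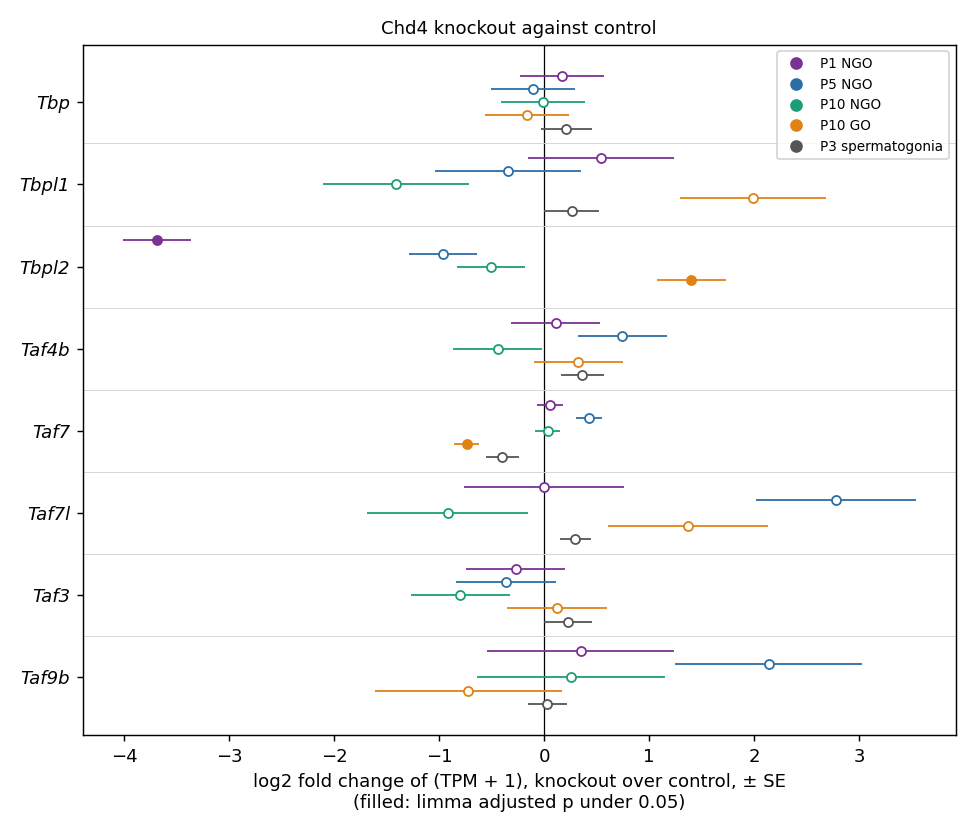
Knockout effect on each gene as the log2 fold change of (TPM + 1), knockout over control, with bars of 1 SE in each of the 5 cell groups. Filled points passed limma at an adjusted p of 0.05: Tbpl2 in P1 NGO (-3.69) and P10 GO (1.40) and Taf7 in P10 GO (-0.74).

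Tbp, which encodes the general TATA-binding factor, lay between 13.6 and 42.1 TPM in all 20 libraries. It was at 27.96 and 13.6 TPM in P1 DcKO against 16.6 and 17.9 TPM in Dctrl, and at 16.8 and 15.9998 TPM in P5 DcKO against 16.6 and 18.9 TPM in Dctrl. At P10 it was at 28.2 and 15.3 TPM in GcKO NGO against 16.3 and 26.9 TPM in Gctrl NGO. In GO it was at 30.2 and 36.4 TPM in GcKO against 35.5 and 38.9 TPM in Gctrl. Knockout and control libraries overlapped at every stage. At P10 all 4 GO libraries lay above all 4 NGO libraries. Tbp did not pass the test in any of the comparisons made, with log2 knockout effects from -0.16 to 0.21. Its change with growth in Gctrl, 0.80 (SE 0.40, limma adjusted p = 0.193), was 1.35 with median-of-ratios scaling and passed (limma adjusted p = 0.0240).

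The TPM of Tbpl2 relative to Tbp was 0.246 and 0.250 in P1 DcKO against 3.93 and 4.84 in Dctrl. At P5 the ratio was 10.3 and 7.13 in DcKO against 16.3 and 14.7 in Dctrl. At P10 it was 10.4 and 24.4 in GcKO NGO against 23.3 and 21.8 in Gctrl NGO, and 42.7 and 34.7 in GcKO GO against 11.1 and 15.2 in Gctrl GO. The size of this ratio depends on the gene length. Tbp (ENSMUSG00000014767, chr17:15499888-15528379, plus strand) has exons that cover 13576 bases in GENCODE M21, while its shortest coding transcript has 1652. Tbpl2 (ENSMUSG00000061809, chr2:24071721-24096595, minus strand) has a single transcript of 1379 bases. With the shortest coding length for Tbp, a choice made after seeing the values, the ratio was 0.0300 and 0.0304 in P1 DcKO against 0.478 and 0.589 in Dctrl. On that length it was 5.20 and 4.22 in GcKO GO against 1.35 and 1.85 in Gctrl GO. Which of the genes was more abundant per length at P1 in Dctrl thus depends on the length used. The same holds for P5 DcKO replicate 2, where the ratio was 7.13 or 0.868. The order of libraries cannot change with the length, because the ratio of every library is multiplied by the same factor. Tbp also shares 2582 exon bases with Pdcd2 on the opposite strand, and the strandedness of the counts was not given in the sources used here.

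**Figure D3:**
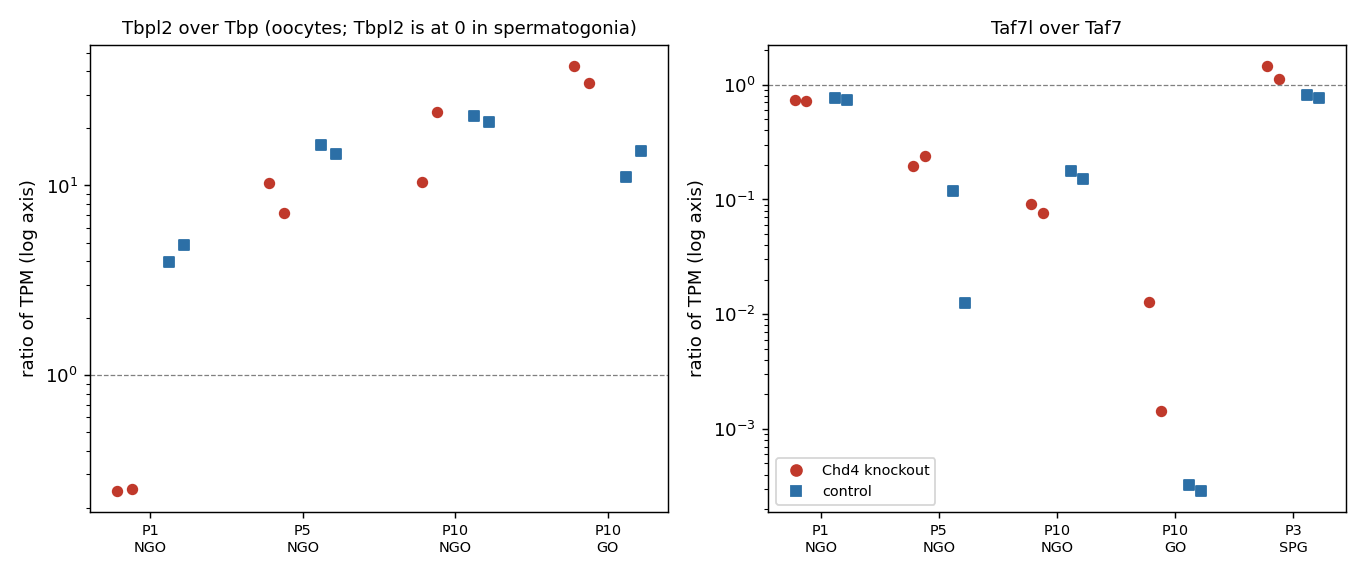
Ratio of TPM of Tbpl2 to Tbp (left) and of Taf7l to Taf7 (right) in each library on log axes, with knockout (red circles) left of control (blue squares). Both P1 DcKO libraries lie under 1 for Tbpl2 over Tbp and both P1 Dctrl libraries above 3. Taf7l over Taf7 is under 0.02 in all P10 GO libraries and also in P5 Dctrl NGO replicate 2 (0.0126).

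Tbpl1 (ENSMUSG00000071359, chr10:22703879-22731938, minus strand), the paralog that does not bind the TATA box, was most abundant in spermatogonia among the 10 groups, in the separately normalised table. There it was at 125.8 and 82.7 TPM in DcKO against 96.6 and 74.5 TPM in Dctrl, and the groups overlapped. In oocytes it was at 17.5 and 37.0 TPM in P1 DcKO against 15.1 and 19.5 TPM in Dctrl, and at 57.5 and 41.9 TPM in P5 DcKO against 63.8 and 61.3 TPM in Dctrl. It was at 59.4 and 8.14 TPM in P10 GcKO NGO against 56.1 and 67.4 TPM in Gctrl NGO. GcKO NGO replicate 2 stood far below the other 3 libraries of that stage, and was also the lowest of them for Taf3. In GO, Tbpl1 was at 37.4 and 19.8 TPM in GcKO against 7.85 and 4.75 TPM in Gctrl, without overlap. The GO effect was 1.99 (SE 0.69, limma adjusted p = 0.0844), so it did not pass, nor did its difference from the NGO effect, 3.40 (SE 0.98, limma adjusted p = 0.0579). Without GcKO NGO replicate 1 that difference was 4.76, where replicate 2 alone stood for GcKO NGO. The difference passed with a filter at 5 TPM (limma adjusted p = 0.0442) and with the replicate block (0.0361). In P10 NGO the effect was -1.41 (SE 0.69, limma adjusted p = 0.363). Without GcKO replicate 1 it was -2.77, where GcKO was replicate 2 alone, at 8.14 TPM. Replicate 1, at 59.4 TPM, lay between both Gctrl libraries.

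Taf4b (ENSMUSG00000054321, chr18:14783245-14900359, plus strand) encodes the germ cell paralog of the TFIID scaffold subunit TAF4. It was at 11.9 and 24.2 TPM in P1 DcKO against 14.4 and 17.2 TPM in Dctrl, and at 17.5 and 13.7 TPM in P5 DcKO against 6.51 and 11.8 TPM in Dctrl. In P10 NGO it was at 30.4 and 46.2 TPM in GcKO against 43.8 and 59.8 TPM in Gctrl, and in P10 GO at 19.6 and 21.2 TPM in GcKO against 12.6 and 20.4 TPM in Gctrl. In spermatogonia it was at 101.0 and 122.6 TPM in DcKO against 76.6 and 96.9 TPM in Dctrl. Knockout and control did not overlap at P5 and in spermatogonia, where DcKO was higher, and overlapped elsewhere. No knockout effect on Taf4b passed, the largest being 0.75 at P5 (SE 0.42, limma adjusted p = 0.564).

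Taf4, the widely expressed paralog of Taf4b, rose in GcKO NGO and fell in GcKO GO. It was at 5.16 and 12.998 TPM in GcKO NGO against 0.449 and 0.278 TPM in Gctrl NGO, a rise of 2.77 (SE 0.55, limma adjusted p = 0.0268). In GO it was at 1.15 and 3.14 TPM in GcKO against 12.02 and 8.32 TPM in Gctrl, and fell by 1.88 on the log2 scale (SE 0.55, limma adjusted p = 0.0411). The difference between both effects was -4.65 (SE 0.78, limma adjusted p = 0.00446) and passed under 15 of 16 alternatives. The separate calls were less stable: the NGO call was lost under 5 of 12 alternatives, including without either Gctrl library or GcKO replicate 2, and the GO call under 6 of 12, including without either Gctrl library or GcKO replicate 1. Levels of Taf4 this low, down to 0.121 TPM in P1 DcKO, make the ratio of Taf4b to Taf4 unsteady, and it is not compared here.

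Taf7 (ENSMUSG00000051316, chr18:37640491-37644204, minus strand) encodes a TFIID subunit that restrains the TAF1 subunit, and was the most abundant of the 8 genes per length in the P1 and P5 libraries of both genotypes. It was at 385.5 and 401.3 TPM in P1 DcKO against 377.1 and 379.1 TPM in Dctrl. It was at 493.9 and 493.8 TPM in P5 DcKO against 352.7 and 381.3 TPM in Dctrl. In P10 NGO it was at 467.6 and 513.9 TPM in GcKO against 482.8 and 475.0 TPM in Gctrl. In P10 GO it was at 416.8 and 383.9 TPM in GcKO against 724.9 and 616.3 TPM in Gctrl. Its replicates were close, so small differences separated the groups: DcKO was higher without overlap at P1 and P5, and GcKO was lower without overlap in GO. Taf7 fell in GcKO GO by 0.74 on the log2 scale (SE 0.12, limma adjusted p = 0.00163). The call was lost under 1 of 12 alternatives, a fit without the mean-variance trend (limma adjusted p = 0.0730). The effect differed from that in NGO by -0.77 (SE 0.17, limma adjusted p = 0.0195), a call lost without Gctrl GO replicate 1 (limma adjusted p = 0.0741), without the trend (0.229) and with only the groups compared (0.142). At P5 the effect was 0.43 (SE 0.12, limma adjusted p = 0.129).

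Taf7l (ENSMUSG00000009596, chrX:134460118-134476490, minus strand), the X-linked paralog of Taf7, covered the widest range among the TAFs. It was at 281.7 and 287.4 TPM in P1 DcKO against 291.0 and 278.2 TPM in Dctrl, with overlap. At P5 it was at 96.3 and 118.6 TPM in DcKO against 41.7 and 4.79 TPM in Dctrl, and each DcKO library was higher. In P10 NGO it was at 42.4 and 39.3 TPM in GcKO against 85.1 and 71.8 TPM in Gctrl, and each GcKO library was lower. In P10 GO it was at 5.28 and 0.549 TPM in GcKO, from 89 and 8 reads, against 0.235 and 0.179 TPM in Gctrl, from 4 and 3 reads. The exact Poisson interval at 95% was 0.0639 to 0.601 TPM for the first Gctrl library and 0.0369 to 0.523 TPM for the second, which covers counting error only. The interval of GcKO replicate 2, 0.237 to 1.08 TPM, overlapped both.

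No knockout effect on Taf7l passed. At P5 it was 2.78 (SE 0.76, limma adjusted p = 0.114). Without Dctrl replicate 1 it was 4.22, where Dctrl was replicate 2 alone, at 4.79 TPM. Dctrl replicate 1, at 41.7 TPM, lay nearer to the DcKO libraries. Dctrl replicate 2 was also the lower P5 Dctrl library for Taf9b. At P10 it was -0.92 in NGO (SE 0.76, limma adjusted p = 0.701) and 1.37 in GO (SE 0.76, limma adjusted p = 0.296). At P5, 9 supporting cell markers summed to 18.4 and 52.0 TPM in DcKO against 2.55 and 3.35 TPM in Dctrl, with 2 and 4 of the 9 at 1 TPM or more in DcKO against 2 and 1 in Dctrl. The part of these in the P5 values of Taf7l was not tested.

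Taf9b (ENSMUSG00000047242, chrX:106206883-106221158, minus strand), a paralog of the TFIID and SAGA subunit gene Taf9, was at 77.9 and 87.7 TPM in P1 DcKO against 61.3 and 68.1 TPM in Dctrl. At P5 it was at 92.3 and 135.8 TPM in DcKO against 59.4 and 9.87 TPM in Dctrl, without overlap. In P10 NGO it was at 27.1 and 5.10 TPM in GcKO against 25.3 and 3.58 TPM in Gctrl, where both groups held 1 high and 1 low library. In P10 GO it was at 42.6 and 47.8 TPM in GcKO against 77.9 and 72.2 TPM in Gctrl, without overlap. No effect passed, the largest being 2.14 at P5 (SE 0.89, limma adjusted p = 0.357). Taf9 itself was listed under 1 TPM in every library and shares 1564 exon bases with Ak6 on the same strand, so its value is uncertain and no ratio to Taf9b is given.

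Taf3 (ENSMUSG00000025782, chr2:9914552-10048596, minus strand) encodes a TFIID subunit that binds methylated histones at promoters. It was at 14.3 and 21.2 TPM in P1 DcKO against 15.4 and 29.2 TPM in Dctrl, and at 17.2 and 21.5 TPM in P5 DcKO against 27.0 and 23.1 TPM in Dctrl. In P10 NGO it was at 10.3 and 3.06 TPM in GcKO against 10.1 and 11.5 TPM in Gctrl. In P10 GO it was at 19.8 and 23.0 TPM in GcKO against 21.8 and 17.5 TPM in Gctrl. Of the 4 oocyte stages the groups were apart at P5, with DcKO lower, and overlapped in the others. No effect passed, the largest being -0.80 in P10 NGO (SE 0.47, limma adjusted p = 0.483).

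Over all 8 genes, the libraries did not overlap for 7 genes at P5, against 47.3% of all genes, for 2 in P10 NGO, against 34.5%, and for 5 in P10 GO, against 48.3%. The 7 at P5 were Taf4b, Taf7, Taf7l and Taf9b, higher in DcKO, and Tbpl1, Tbpl2 and Taf3, lower in DcKO. Their median log2 change at P5 was 0.16 over the 8 genes, against 0.00 over all genes tested.

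In spermatogonia none of the 7 genes tested passed, with Tbpl2 at 0 and untested. No gene of the 18671 tested passed there, so the share called was 0%, although 3004 genes, Taf7 among them, had an unadjusted limma p under 0.05. Taf7 was at 272.7 and 340.2 TPM in DcKO against 425.9 and 378.0 TPM in Dctrl, with an effect of -0.40 (SE 0.16, limma adjusted p = 0.310). Taf7l was at 398.2 and 378.0 TPM in DcKO against 345.0 and 288.2 TPM in Dctrl, with an effect of 0.30 (SE 0.15, limma adjusted p = 0.391). The ratio of Taf7l to Taf7 was thus 1.46 and 1.11 in DcKO against 0.810 and 0.762 in Dctrl. Taf3 was at 46.6 and 58.9 TPM in DcKO against 45.5 and 43.6 TPM in Dctrl. Tbp was at 36.8 and 42.1 TPM in DcKO against 30.9 and 37.0 TPM in Dctrl, and Taf9b at 95.3 and 112.5 TPM in DcKO against 108.3 and 94.7 TPM in Dctrl. The libraries did not overlap for 4 of the 7 genes, against 45.9% of all genes: Taf3, Taf4b and Taf7l were higher in DcKO and Taf7 was lower. Stromal markers summed to 36.6 and 47.2 TPM in DcKO against 9.49 and 13.3 TPM in Dctrl, with Hsd3b1 at 0 in all 4. Blood markers summed to 69.6 and 98.7 TPM in DcKO against 28.1 and 37.9 TPM in Dctrl. Endothelial markers summed to 34.8 and 45.4 TPM in DcKO against 18.3 and 17.2 TPM in Dctrl, and supporting cell markers to 73.2 and 114.3 TPM in DcKO against 91.6 and 37.9 TPM in Dctrl. The supporting cell sums overlapped and the other 3 did not. Their part in these values was not tested.

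Age was compared within each genotype. From P1 to P5 in DcKO, Tbpl2 rose by 4.58 on the log2 scale (SE 0.33, limma adjusted p = 1.27e-05) and was the only 1 of the 8 genes to pass, against 5.13% of all genes. Taf7l had a change of -1.40 in DcKO (SE 0.76, limma adjusted p = 0.393). In Dctrl, Tbpl2 rose by 1.86 (SE 0.33, limma adjusted p = 0.00703) and Taf7l fell by 4.18 (SE 0.76, limma adjusted p = 0.00890). These were 2 of 8 genes, against 4.7% of all genes. The Taf7l knockout effect at P5 differed from that at P1 by 2.78 (SE 1.08, limma adjusted p = 0.514), so the changes in DcKO and Dctrl were not shown to differ. The DcKO rise of Tbpl2 passed under all 12 alternatives. The Dctrl rise was lost without P1 Dctrl replicate 1 (limma adjusted p = 0.0928) or either P5 Dctrl library, and the Taf7l fall was lost without either P1 Dctrl library (limma adjusted p = 0.0840 and 0.0652).

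P10 Gctrl NGO were also set against P5 Dctrl NGO, where age, Chd4 allele and Cre cannot be told apart. Taf4b was higher at P10 by 2.41 (SE 0.42, limma adjusted p = 0.00177) and passed under all 12 alternatives. Taf7l was higher at P10 by 2.33 (SE 0.76, limma adjusted p = 0.0461) and Taf7 by 0.38 (SE 0.12, limma adjusted p = 0.0405), each a call lost under 7 of 12 alternatives. Taf7l was at 85.1 and 71.8 TPM in P10 Gctrl against 41.7 and 4.79 TPM in P5 Dctrl; without the lower P5 library its difference was 0.89 (limma adjusted p = 0.375). The Taf7 call was lost without each of the 4 libraries in turn, with limma adjusted p from 0.0739 to 0.198. These 3 of 8 genes compare with 22.7% of all genes. The median over all genes was -0.47 in this comparison, and 0.03 after quantile normalisation. After that normalisation Taf4b was higher by 2.83, Taf7l by 2.63 and Taf7 by 0.38, and all 3 passed. At P10 the NGO libraries listed 10003 to 11820 genes at 1 TPM or more, against 14305 and 15453 in P5 Dctrl.

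Growth was compared at P10 between GO and NGO of the same genotype. In GcKO, 3 of 8 genes passed between GO and NGO, against 20.4% of all genes. Tbpl2 rose in GO by 1.94 (SE 0.33, limma adjusted p = 0.00118) and Taf7l fell by 3.75 on the log2 scale (SE 0.76, limma adjusted p = 0.00419), both under all 12 alternatives. Taf3 rose by 1.72 (SE 0.47, limma adjusted p = 0.0224). The Taf3 call was lost without GcKO NGO replicate 2, where it was 0.98 (limma adjusted p = 0.168), and without either GcKO GO library. Tbpl1 had a change of 0.27 in GcKO (SE 0.69, limma adjusted p = 0.948). Without GcKO NGO replicate 1 it was 1.63, where the low replicate 2 alone stood for GcKO NGO.

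In Gctrl, 5 of 8 genes passed, against 24.3% of all genes. Taf7l fell in GO by 6.04 on the log2 scale (SE 0.76, limma adjusted p = 0.000117), Tbpl1 fell by 3.13 (SE 0.69, limma adjusted p = 0.00555) and Taf4b fell by 1.61 (SE 0.42, limma adjusted p = 0.0147). Taf9b rose by 2.79 (SE 0.89, limma adjusted p = 0.0392) and Taf7 rose by 0.48 (SE 0.12, limma adjusted p = 0.0121). Tbpl2 differed by 0.03 between Gctrl GO and NGO (SE 0.33, limma adjusted p = 1). The Taf7l and Tbpl1 falls passed under all 12 alternatives. The Taf4b, Taf7 and Taf9b calls were each lost without Gctrl NGO replicate 2 or Gctrl GO replicate 1, and that of Taf9b also without Gctrl GO replicate 2. With median-of-ratios scaling the Taf4b fall was 1.07 and no longer passed (limma adjusted p = 0.108). As given above, limma called the difference between genotypes for the growth changes of Tbpl2 and Taf7, and did not call it for the other 6 genes.

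**Figure D4:**
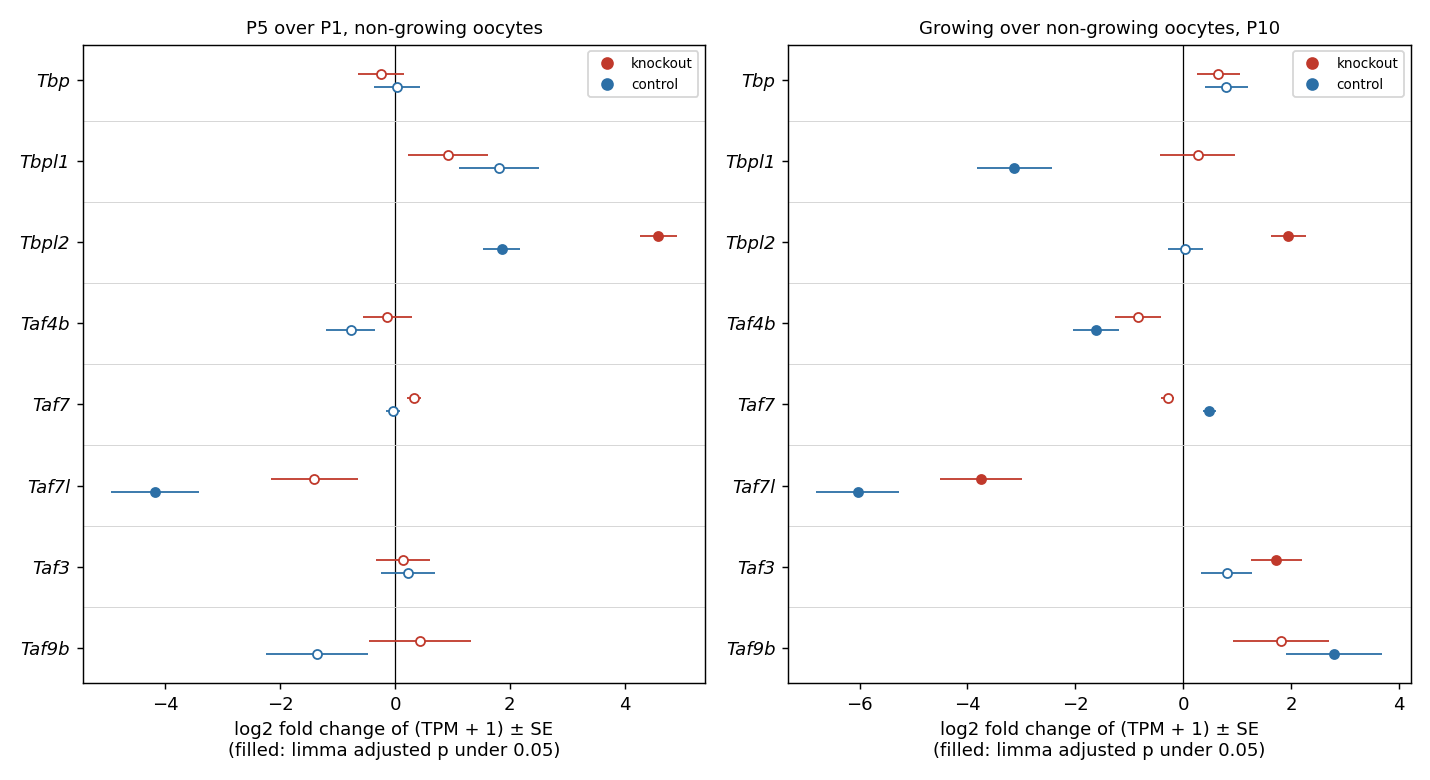
Change of each gene from P1 to P5 in NGO (left) and from NGO to GO at P10 (right), as log2 fold change of (TPM + 1) with bars of 1 SE, in Chd4 knockout (red) above control (blue). Filled points passed limma at an adjusted p of 0.05; Tbpl2 rose with growth in GcKO (1.94) and differed by 0.03 in Gctrl, while Taf7l fell with growth in both.

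The other general transcription genes were read from lists of TFIID, TFIIA and TFIIB, TFIIE, TFIIF and TFIIH, the TBP complexes outside TFIID, and SAGA, the coactivator that shares TAFs with TFIID. They held 54 genes, of which 51 were tested, and Ataxn7 and Ataxn7l3 were not analysed here. Of the 51, none passed for DcKO at P1 or P5 or in spermatogonia, against 1.7%, 1.36% and 0% of all genes. An unadjusted limma p under 0.05 was found for 2, 6 and 5 of the 51. Over all genes it was found for 2092 and 2421 of 20470 at P1 and P5, and for 3004 of 18671 in spermatogonia. In P10 NGO, 1 rose in GcKO, Taf4, where 1.92% of all genes passed. In P10 GO, 1 rose and 5 fell in GcKO, where 13.8% of all genes passed. Of the 5 falls, 3 passed without GcKO replicate 1, 2 without Gctrl replicate 2 and 1 with only the groups compared, and the rise passed in none of these. The median over the 51 log2 change there was 0.00, against 0.06 over all genes tested.

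Among those in GcKO GO, Gtf2a1, the large TFIIA subunit, was at 244.3 and 257.4 TPM in GcKO against 565.6 and 611.0 TPM in Gctrl. It fell by 1.23 on the log2 scale (SE 0.20, limma adjusted p = 0.00139) under all 12 alternatives. Taf1b, a subunit of the RNA polymerase I factor SL1, was at 38.7 and 12.2 TPM in GcKO against 97.4 and 111.3 TPM in Gctrl. It fell by 2.20 (SE 0.45, limma adjusted p = 0.00660), a call lost with only the groups compared (limma adjusted p = 0.0673). Bdp1, a subunit of the RNA polymerase III factor TFIIIB, was at 2.74 and 1.35 TPM in GcKO against 10.4 and 11.4 TPM in Gctrl and fell by 2.00 (SE 0.44, limma adjusted p = 0.00946). The Bdp1 call was lost without Gctrl replicate 2 or GcKO replicate 2, and with only the groups compared (limma adjusted p = 0.0909). Supt20 of SAGA fell and Ccnh of TFIIH rose, both lost without Gctrl replicate 2 or GcKO replicate 1.

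The germ cell TFIIA gene Gtf2a1l was at 166.2 and 331.5 TPM in GcKO against 232.8 and 269.8 TPM in Gctrl in GO (log2 change -0.09, SE 0.84, limma adjusted p = 1). It rose with growth by 3.997 in GcKO (limma adjusted p = 0.00515) and by 4.003 in Gctrl (limma adjusted p = 0.00403). The GcKO call was lost without NGO replicate 2 (limma adjusted p = 0.0523). With growth in GcKO 2 of the 51 genes rose and 8 fell, where 20.4% of all genes passed. None of these 8 falls passed with only the groups compared, 5 passed with median-of-ratios scaling and 4 without GcKO GO replicate 2. With growth in Gctrl 4 rose and 13 fell, where 24.3% of all genes passed. Of these 13 falls, 7 passed with median-of-ratios scaling, and 7 without Gctrl NGO replicate 2 or without Gctrl GO replicate 2. The TFIID subunit gene Taf5 fell with growth by 1.41 in GcKO (SE 0.29, limma adjusted p = 0.00453) and by 2.27 in Gctrl (SE 0.29, limma adjusted p = 0.000131).

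**Figure D5:**
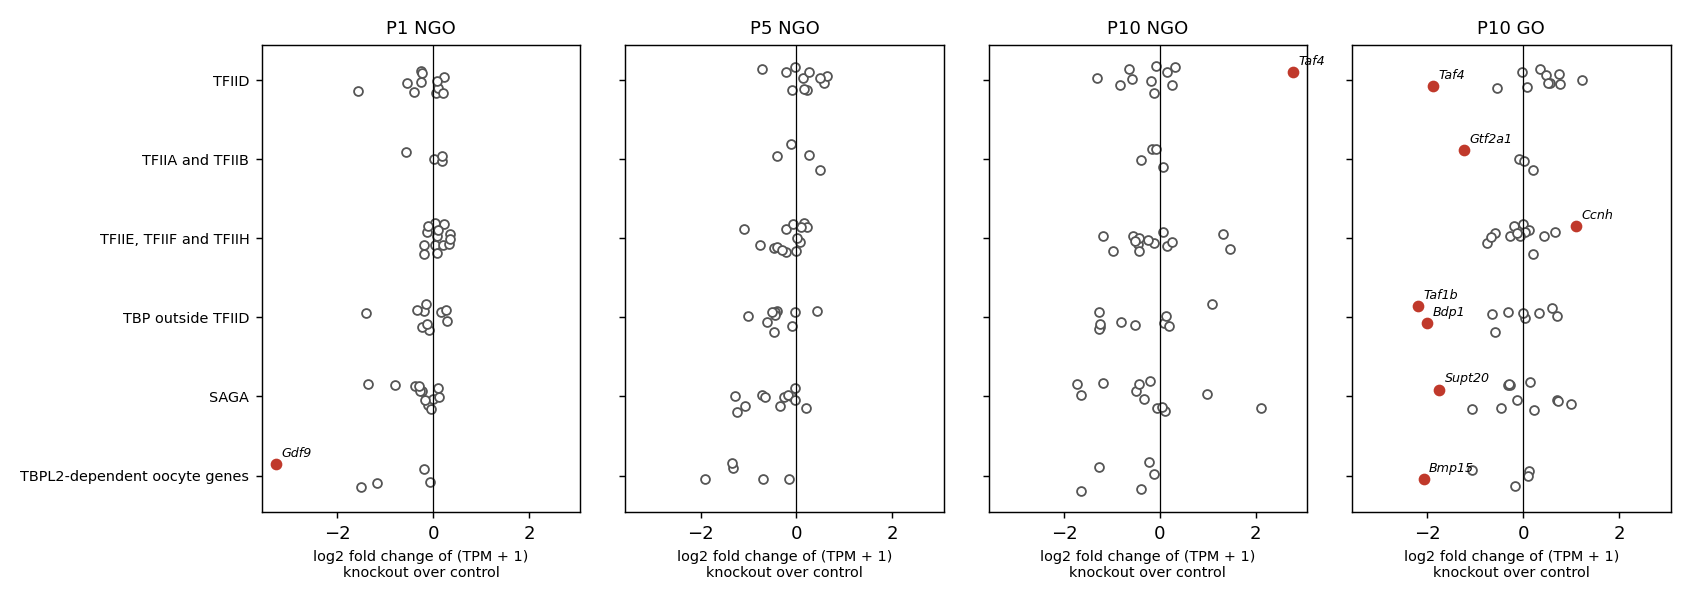
Knockout effect on each tested gene of 5 lists of general transcription genes and of 5 genes known to need TBPL2, as log2 fold change of (TPM + 1), knockout over control, in the 4 oocyte stages. Red points, with names, passed limma at an adjusted p of 0.05, and the height of a point within its row has no meaning.

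A short list of oocyte genes known to need TBPL2, Bmp15, Eloc, Fgf8, Gdf9 and Zar1, was read beside Tbpl2. All 5 had a log2 change below 0 in DcKO at P1 and P5 and in GcKO NGO, with medians of -1.18, -1.32 and -0.40 against 0.00 over all genes tested. Gdf9, the oocyte growth factor, was at 3.96 and 1.38 TPM in P1 DcKO against 27.6 and 37.4 TPM in Dctrl, and fell by 3.27 on the log2 scale (SE 0.41, limma adjusted p = 0.00215) under all 12 alternatives. It was the only 1 of the 5 to pass at P1, against 1.7% of all genes. None passed at P5, against 1.36% of all genes, and none in P10 NGO, against 1.92%. An unadjusted limma p under 0.05 was found for 3 of the 5 at P5 and for 1 in P10 NGO. Over the 20470 genes tested it was found for 2421 at P5 and 3186 in P10 NGO.

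In P10 GO, where Tbpl2 was higher in GcKO, 2 of the 5 had a log2 change above 0 and the median was -0.18, against 0.06 over all genes tested. Bmp15, an oocyte growth factor and paralog of Gdf9, was at 132.1 and 98.2 TPM in GcKO GO against 598.8 and 391.4 TPM in Gctrl GO. It fell by 2.08 (SE 0.59, limma adjusted p = 0.0347), a call lost under 6 of 12 alternatives, including each library left out (limma adjusted p 0.0726 to 0.204). Gdf9 was at 750.2 and 733.5 TPM in GcKO GO against 720.3 and 656.0 TPM in Gctrl GO (log2 change 0.11, SE 0.41, limma adjusted p = 1). Zar1, a maternal effect gene, was at 92.2 and 69.9 TPM in GcKO GO against 176.4 and 162.3 TPM in Gctrl GO (log2 change -1.07, SE 0.52, limma adjusted p = 0.228). With growth all 5 rose in GcKO and 4 rose in Gctrl, where 20.4% and 24.3% of all genes passed. In GcKO the calls of Eloc (limma adjusted p = 0.0846) and Fgf8 (0.0660) were lost with only the groups compared, and that of Fgf8 also without NGO replicate 2 (0.0537) or GO replicate 2. In Gctrl the call of Fgf8 was lost without NGO replicate 2 (0.0514) or GO replicate 1 (0.0816).

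The genes most alike in pattern were ranked by Pearson correlation of log2(TPM + 1) over the 16 oocyte libraries, among 10414 genes with a mean of at least 5 TPM in a group. These libraries share groups, depth and a single table, so the values describe and do not test. For Tbpl2 the highest were Map3k6 (0.95), Zfp931 (0.94), Nlrp14 (0.94), Fbxw27 (0.94) and Gda (0.93). For Taf4b they were Zfp654 (0.93), Prorsd1 (0.91), Crebl2 (0.90), mt-Cytb (0.88) and Ssr1 (0.88). For Taf7l they were Atp5j (0.95), Ssbp1 (0.95), Smdt1 (0.94), Rbis (0.94) and Hmgb3 (0.94).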

How the data were processed

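The authors deposited TPM values, scaled for gene length, in a table for 16 oocyte libraries and another for 4 spermatogonia libraries. The tables were normalised separately. Per the submitters' processing notes the tools were featureCounts 2.0.1, SAMtools 1.9, STAR 2.5.4b and Trimmomatic 0.39, and the genome build GRCm38. How TPM was computed, on which annotation and lengths, and whether reads were counted by strand is not given in the sources used here. Per the labels' protocols, total RNA went into a NEBNext Single Cell/Low Input library and was read as pairs on a HiSeq X.

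Reads behind each value were recovered from TPM and GENCODE M21 union exon lengths, using the factor that turns low values into whole reads. Of the values under 20 reads, between 98.7% and 99.2% per library then lay within 0.05 of a whole number. Depth was 15.3 to 30.1 M reads. Of the 160 member values, 8 above 0 rested on under 100 reads. No count test was run on these reads.

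Values were tested as log2(TPM + 1) in limma 3.58.1 under R 4.3.3, by lmFit, contrasts.fit and eBayes with the trend option. Tests were two-sided, p-values were adjusted by Benjamini and Hochberg over every gene tested, and the threshold was 0.05. Genes with at least 1 TPM in at least 2 libraries were tested. All 16 oocyte libraries shared a fit, with 8 residual degrees of freedom, and the spermatogonia were fitted alone, with 2. The fit was tested on simulated data. Python 3.11.15 with numpy 2.4.6, pandas 2.3.3 and matplotlib 3.10.9 made the tables and plots. The 8 genes and all lists were chosen with earlier results of these data known. All 8 genes are named; of each list up to 4 genes with the smallest p in a comparison may be named, and the alike genes are the 5 with the highest correlation to Tbpl2, Taf4b or Taf7l, predicted gene models left out. Alternatives were a pseudocount of 0.1, a filter at 5 TPM, no filter, median-of-ratios scaling, quantile normalisation, no trend, a replicate block, a fit of only the groups compared, and each library left out.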

Additional observations from a re-analysis of the deposited data

Results flagged for a closer look

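In the main fit, the effect of Chd4 knockout on Tbpl2 differed between ages and between oocyte stages by a test of the difference itself. It was -0.96 at P5 and -3.69 at P1, a difference of 2.73 (SE 0.46, limma adjusted p = 0.0307). It was 1.40 in P10 GO and -0.51 in P10 NGO, a difference of 1.91 (SE 0.46, limma adjusted p = 0.0279). The effect on Taf7 was -0.74 in GO and 0.03 in NGO, a difference of -0.77 (SE 0.17, limma adjusted p = 0.0195). These calls depended on the setting. For Tbpl2 the P5 minus P1 difference passed under 6 of 16 alternatives and the GO minus NGO difference under 7 of 16. For Taf7 the GO minus NGO difference passed under 13 of 16.

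In other pairs of stages every knockout library lay above its controls in one and below them in the other, and these differences were not tested. They also join different Cre lines, ages or sexes. The pairs were picked by this lack of overlap, which held for 34.5% to 48.3% of all genes at a single stage. The share of all genes with opposite directions in a pair of stages was not computed. Some pairs rest on small effects, such as that on Taf7 at P1 (0.06). For Tbpl2 the P1 effect minus the GO effect was -5.09, and the P5 effect minus the GO effect was -2.37. For Tbpl1 the P5 effect minus the GO effect was -2.33. For Taf7 the P1 effect minus the GO effect was 0.80 and minus the spermatogonia effect 0.45, while the P5 effect minus the GO effect was 1.17 and minus the spermatogonia effect 0.82. For Taf7l the P5 effect minus the P10 NGO effect was 3.70, and the P10 NGO effect minus the spermatogonia effect was -1.22. For Taf3 the P5 effect minus the spermatogonia effect was -0.59. For Taf9b the P1 effect minus the GO effect was 1.07, and the P5 effect minus the GO effect was 2.86.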

How the results depend on the processing

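Over the 8 genes there were 95 tests, of which 20 passed. Of 252 alternatives to those 20, 190 passed in the same direction, 62 did not pass, and none turned the direction. 7 of the 20 passed under every alternative run. Of 944 alternatives to the tests that did not pass, 10 passed and 52 had another sign, which is not counted as a reversal because no direction was claimed.

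The number of members called changed by more than 1.5 times as follows. Without the trend it was 1 in place of 2 for GcKO in GO, 3 in place of 5 for growth in Gctrl, 1 in place of 3 for P10 Gctrl against P5 Dctrl, 0 in place of 1 for the P5 minus P1 difference and 0 in place of 2 for the GO minus NGO difference. With only the groups compared it was 2 in place of 1 for P5 against P1 in DcKO, where Taf7l was gained, then 3 for growth in Gctrl, 1 for P10 against P5 and 0 for both differences. A filter at 5 TPM left 0 in the P5 minus P1 difference. No filter left 1, and median-of-ratios scaling 1, in the GO minus NGO difference. With 1 library left out the count ranged from 0 to 1 for DcKO at P5, 0 to 1 for GcKO in P10 NGO, 1 to 2 for GcKO in GO, 0 to 1 for P5 against P1 in Dctrl, 0 to 1 for the P5 minus P1 difference and 0 to 2 for the GO minus NGO difference. For growth in Gctrl it ranged from 2 to 5, and for P10 against P5 from 1 to 2. Smaller changes were 3 in place of 2 for P5 against P1 in Dctrl with only the groups compared (Tbpl1 gained), 2 in place of 3 for growth in GcKO with only the groups compared (Taf3 lost) and 2 to 4 with 1 library left out, 2 in place of 3 for P10 against P5 with a pseudocount of 0.1 or no filter (Taf7l lost) or the block (Taf7 lost), 4 in place of 5 with no filter and 6 with median-of-ratios scaling for growth in Gctrl, and 3 in place of 2 for the GO minus NGO difference with a filter at 5 TPM or the block (Tbpl1 gained). The cause was not tested.

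The correlation of replicate differences over genes ran from -0.049 to 0.047, so libraries with the same replicate number showed no shared shift. It cannot exclude that equal replicate numbers were prepared together. With the replicate number as a block, the P5 minus P1 difference of Tbpl2 was lost and its count was 0 (limma adjusted p = 0.0535), as was the Taf7 call of P10 against P5 (0.0529), and the GO minus NGO difference of Tbpl1 was gained (0.0361).

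Counts over all genes moved by more than 1.5 times under some settings. Spermatogonia gave 0 calls, 56 with a filter at 5 TPM and 1 with quantile normalisation. The P5 minus P1 difference gave 64 calls and 10 to 318 over the other settings, DcKO at P5 gave 278 and 0 to 449, and GcKO in P10 NGO gave 393 and 0 to 939. DcKO at P1 gave 348 calls and 190 with a filter at 5 TPM. With 1 library left out, DcKO at P1 gave 71 to 235 calls, fewest without Dctrl replicate 1, DcKO at P5 22 to 396, GcKO in P10 NGO 282 to 1260, most without GcKO replicate 1, GcKO in GO 1744 to 2520, P5 against P1 in DcKO 419 to 669 in place of 1051 and in Dctrl 249 to 486, P10 against P5 2569 to 3687 in place of 4639, the P5 minus P1 difference 16 to 90, the GO minus NGO difference 900 to 2168 and spermatogonia 0 to 24. The shares of all genes given beside the members' counts move with these. With only the groups compared, GcKO in GO gave 1527 calls in place of 2827, growth in GcKO 1637 in place of 4180, the GO minus NGO difference 385 in place of 1527, and P5 against P1 in Dctrl 2358 in place of 962. Median-of-ratios scaling moved the share of calls that were higher to 55.4% in place of 66.0% for GcKO in GO, 53.6% in place of 64.8% for the GO minus NGO difference, 68.0% in place of 56.3% for growth in GcKO and 64.1% in place of 45.4% for growth in Gctrl. Quantile normalisation moved it to 51.4% in place of 24.5% for P10 against P5 and 65.0% in place of 75.8% for P5 against P1 in DcKO. With 2 libraries a group, a p that misses the threshold does not show that values did not differ.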
